A study of Mus musculus with 12 samples.

Results

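Cx3cr1, Csf1r, P2ry12, Aif1, Itgam and Tmem119, which mark microglia, and Cldn5, Pecam1, Cdh5 and Flt1, which mark the endothelium of blood vessels, were followed through H4K8ac profiles of oligodendrocyte progenitor cells (OPCs). The 10 genes were chosen by name as markers of cells other than progenitors, out of 21627 RefSeq protein-coding genes on the chromosomes that the peak lists cover. Their rows are the peaks that the authors assigned to them. H4K8ac, acetylation of lysine 8 of histone H4, had been mapped by chromatin immunoprecipitation and sequencing in OPCs sorted from the forebrain of PdgfrαH2BEGFP mice, in which a green fluorescent histone H2B marks nuclei where Pdgfra is active. Pdgfra marks OPCs but is also active in fibroblasts around vessels, and the sort gate is not given in the sources used here. Each age had 3 biological replicates, taken at postnatal day 5 (neonatal) or postnatal day 60 (adult), and every animal carried the same reporter. How many animals each replicate pooled and their sex are not given in the sources used here. Matching input libraries were not analysed here.

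H4K8ac is laid down by histone acetyltransferases at active promoters and enhancers and is read by bromodomain proteins. Microglia are the resident macrophages of the brain and arise from the yolk sac, whereas OPCs arise from neural progenitors, so the transcription factors that switch on each set of genes differ. Brain endothelial cells line the vessels and seal them with tight junctions, forming the blood-brain barrier. In a pure sort of OPCs the marker genes of both cell types would be expected to be inactive, which makes them a check on the purity of the sort and a set of loci where the mark should be rare. In bulk chromatin, a few cells of another type with a strong mark and many progenitors with a weak mark cannot be told apart.

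The promoters of these genes differ in how many CpG dinucleotides they hold, a property that went with the mark genome-wide, so the sequences of 3 of them are shown beside that of Olig2, a progenitor transcription factor gene with a promoter peak in all 6 libraries. Each run holds 250 bases before and 50 after the RefSeq start (RefSeq, GRCm38.p6), 5′ to 3′ on the strand of the gene. Capitals mark CpG dinucleotides. Cx3cr1 is shown because it had peaks in the adult libraries away from its start, Itgam because peaks lay far inside it, and Flt1 because its start was rich in CpG but had no peak.
Cx3cr1 (chr9:120068247-120068546, minus strand): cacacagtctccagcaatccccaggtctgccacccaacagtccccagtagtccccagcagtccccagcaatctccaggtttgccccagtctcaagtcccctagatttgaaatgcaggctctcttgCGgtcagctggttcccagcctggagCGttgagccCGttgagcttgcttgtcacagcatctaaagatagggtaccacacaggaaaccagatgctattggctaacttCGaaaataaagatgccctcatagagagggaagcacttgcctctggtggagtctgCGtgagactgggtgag
Itgam (chr7:128062390-128062689, plus strand): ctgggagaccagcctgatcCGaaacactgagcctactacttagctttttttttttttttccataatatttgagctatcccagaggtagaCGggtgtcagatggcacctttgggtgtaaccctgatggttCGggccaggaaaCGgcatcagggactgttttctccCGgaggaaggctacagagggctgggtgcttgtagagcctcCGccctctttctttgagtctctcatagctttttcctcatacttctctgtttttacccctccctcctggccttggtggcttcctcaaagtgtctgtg
Flt1 (chr5:147725962-147726261, minus strand): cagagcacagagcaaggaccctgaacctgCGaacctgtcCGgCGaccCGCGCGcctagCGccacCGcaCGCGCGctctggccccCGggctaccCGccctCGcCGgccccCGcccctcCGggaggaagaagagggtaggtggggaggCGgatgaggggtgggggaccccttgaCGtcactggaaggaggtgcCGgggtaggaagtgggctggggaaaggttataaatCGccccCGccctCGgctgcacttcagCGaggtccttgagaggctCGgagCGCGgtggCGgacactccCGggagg
Olig2 (chr16:91225300-91225599, plus strand): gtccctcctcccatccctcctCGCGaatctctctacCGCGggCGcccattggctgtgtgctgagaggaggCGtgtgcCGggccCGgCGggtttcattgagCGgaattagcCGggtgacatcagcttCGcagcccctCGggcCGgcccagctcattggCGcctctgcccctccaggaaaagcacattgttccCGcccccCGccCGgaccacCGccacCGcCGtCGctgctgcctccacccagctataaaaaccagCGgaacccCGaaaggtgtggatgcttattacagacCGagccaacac

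The RefSeq table held promoters of 6 of the 10 genes. The Cx3cr1 window had 5 CpG, that of P2ry12 had 4, Aif1 had 1, Itgam had 6, Cldn5 had 12 and Flt1 had 29. Olig2 had 25, and the median of 21044 promoters of protein-coding genes was 13. Of the 6, only Flt1 lay above the genome's median. Of the promoters with 20 or more CpG, 87.5% had a peak within 3000 bp of the start in all 3 adult libraries and 5.93% had none in any library. Flt1 belonged to the second, small class. Of the promoters with 3 to 9 CpG, which include those of Cx3cr1, P2ry12 and Itgam, 29.1% had a peak in all 3 adult libraries and 60.0% had none in any library. The letters GAGGAA, the PU box that the myeloid factor PU.1 binds and that holds the core of other ETS factors, occurred on either strand 3 times in the Itgam window, 1 time each in those of Aif1 and Flt1, and in none of the other 3, against at least 1 match in 27.2% of all 21044 windows. No overlap with another motif was considered, and a match in letters is not a binding site.

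The lists behind the following counts differed in length. The neonatal lists had 9097, 31189 and 7353 peaks for replicates 1, 2 and 3, and the adult lists had 72278, 72661 and 77002. Reads per library were not given, so the depth is unknown, and neonatal replicate 2 stood apart from the other neonatal libraries. Most progenitor markers were present in each library. Of 10 OPC genes, the neonatal libraries had a promoter peak on 10, 10 and 8 and the adult ones on 9, 9 and 8. All 6 libraries had one on 6 of the 10, against 17.5% of all genes. In 3 against 3 libraries the smallest p-value of an exact permutation test is 0.1, so none of the tests between ages could reach 0.05.

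Most of the microglial and endothelial genes had no peak near a start. No neonatal library had a promoter peak, one within 3000 bp of an annotated transcript start, on any of the 10 genes. Each adult library had promoter peaks on the same 2 genes, Cx3cr1 and Pecam1. Among all 21627 genes, promoter peaks were found on 26.4%, 53.2% and 23.5% in the neonatal and on 56.3%, 54.4% and 55.2% in the adult lists. The pattern of Cx3cr1 and Pecam1, a promoter call in each adult list but none in the neonatal lists, was found on 4.73% of all genes. The 2 of 10 are given as a description, without a test.

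Counting peaks of every class, 0, 3 and 0 of the 10 genes had a peak in the neonatal libraries and 4, 3 and 4 in the adult ones. Over all genes the shares were 27.2%, 55.6% and 24.2% in the neonatal and 59.6%, 57.7% and 58.9% in the adult lists. The ages overlapped, because neonatal replicate 2 reached the level of adult replicate 2. Without neonatal replicate 2 the difference between the mean counts of the ages was 3.67 genes in place of 2.67. The number of peaks was 0, 5 and 0 in the neonatal libraries and 12, 12 and 11 in the adult libraries. These counts did not overlap between the ages, but neither did the lengths of the whole lists. Those ran from 7353 to 31189 peaks in the neonatal and from 72278 to 77002 in the adult libraries. Pecam1 and Cx3cr1 together held 30 of the 35 adult peaks, and Pecam1 held 3 of the 5 neonatal ones. Csf1r, P2ry12, Aif1, Itgam and Tmem119 had no assigned peak in any library, 5 of 10 genes against 34.2% of all genes. Of the 10, Cx3cr1 alone had peaks in each adult library but in no neonatal one, a pattern of 5.53% of all genes.

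**Figure D1:**
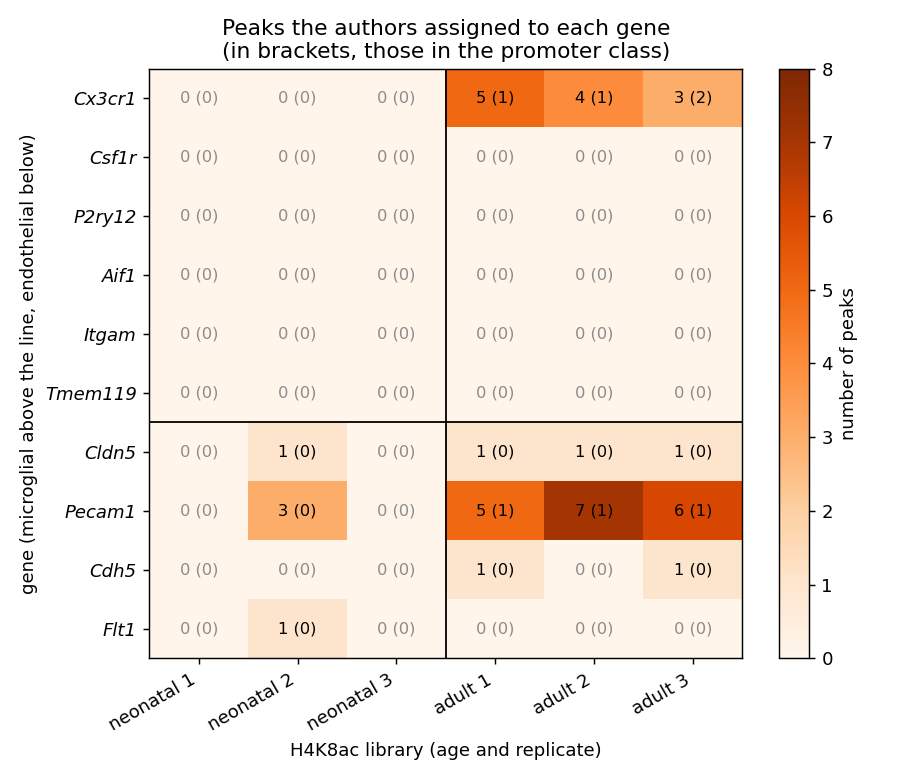
Number of peaks assigned by the authors to each gene (rows) in each H4K8ac library (columns), with the number in the promoter class in brackets and the colour showing the total. Cx3cr1 has 5, 4 and 3 peaks in the adult libraries and none in the neonatal ones, Pecam1 has 5, 7 and 6 in adult libraries and 3 in neonatal replicate 2, and 5 of the 6 microglial genes are empty throughout.

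Cx3cr1 encodes the fractalkine receptor, through which microglia sense the neuronal chemokine Cx3cl1. The gene lies on chromosome 9, 120048683 to 120068296 (GRCm38), on the minus strand (ENSMUSG00000052336.7 in the lists). Within the gene and 3000 bp on either side, peaks covered 0, 0 and 0 kb in the neonatal libraries and 3.03, 2.49 and 3.61 kb in adult replicates 1, 2 and 3. All adult values thus exceeded all neonatal ones. The mean difference was 3.05 kb, with 3.05 ± 0.563 kb (SD, n = 3) in adult libraries (exact two-sided permutation test, p = 0.1, Benjamini-Hochberg adjusted p = 0.196 over all genes, the smallest values this design gave).

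The Cx3cr1 signal lay in the intron and in both flanks, not at the start. The region with the lowest p-value in each adult library, chromosome 9, 120053121 to 120056512, begins 11.8 kb inside the gene from the RefSeq start and is intronic in the authors' annotation. Its largest fold enrichment, the authors' value over background, was 8.07, 10.8 and 12.8 in adult replicates 1, 2 and 3. These peaks stood at the 86.4, 91.0 and 94.2 percentile of their own lists by p-value. With ranks of 9817, 6531 and 4514 they would all have been kept in an adult list as short as that of neonatal replicate 2, which had no peak there. Only in adult replicates 2 and 3 did they fall among the 7353 strongest peaks, the length of the shortest list.

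The peaks that put Cx3cr1 in the promoter class were upstream. They were counted from a transcript whose start, 120069879, lies upstream of the RefSeq start at 120068296. A region from 120072355 to 120073546, 4.06 to 5.25 kb upstream of the RefSeq start, held peaks in all 3 adult libraries with largest folds of 6.51, 7.50 and 6.39. Adult replicate 2 shows how fine the class boundary is: its strong peak there was 3007 bp from the transcript start and was annotated as distal intergenic, while a weaker one at 1785 bp, with a fold of 3.40, gave the promoter call. Measured from the RefSeq start alone, which was added after the data were seen, no library had a Cx3cr1 peak within 3000 bp. A further region, 120042477 to 120046260, lies beyond the 3′ end of the gene. It had largest folds of 9.40, 9.20 and 9.94 in the adult libraries, and its strongest peaks were assigned to Xirp1, the next gene, which encodes a protein of striated muscle.

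In the authors' deposited table of sites that differ between the ages, the Cx3cr1 intron held 1 site, 120054949 to 120055348, with a log2 fold change of 4.16 (adjusted p = 1.09e-10). Positive values were taken to mean more mark in adult cells, since positive sites of the authors' deposited table overlapped a peak in 85.0% to 96.7% of cases in the adult libraries and in 10.3% to 27.8% in the neonatal ones. The upstream site of the authors' deposited table, 120073030 to 120073429, had a log2 fold change of 2.89 (adjusted p = 8.78e-05), and the site past the 3′ end had 4.09 (adjusted p = 1.18e-10). Set against a median of 2.42 over the 43634 positive sites of the authors' deposited table, all 3 lay above the middle of the table. Each of the 3 was covered by a peak in every adult list and in no neonatal list.

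Pecam1 encodes the adhesion molecule CD31 of endothelial junctions, which platelets and some leukocytes also carry. The gene lies on chromosome 11, 106654213 to 106715281, on the minus strand (ENSMUSG00000020717.19). Within it and 3000 bp on either side, peaks covered 0, 1.47 and 0 kb in the neonatal libraries and 3.31, 3.99 and 3.70 kb in the adult libraries. The adult libraries lay above all neonatal ones, including neonatal replicate 2. The mean was 0.490 ± 0.849 kb (SD, n = 3) at the neonatal age against 3.67 ± 0.346 kb (SD, n = 3) at the adult age, and the means differed by 3.18 kb (exact two-sided permutation test, p = 0.1, adjusted p = 0.196 over all genes).

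Apart from 1 weak peak, the Pecam1 peaks lay in the last part of the gene. In all 3 adult libraries 4 blocks recurred, between 37.0 and 57.6 kb downstream of the RefSeq start. The strongest, chromosome 11, 106674317 to 106675893, had largest folds of 10.1, 10.2 and 8.40 in adult replicates 1, 2 and 3 and 4.89 in neonatal replicate 2. A block from 106657661 to 106658810 had folds of 5.42, 8.51 and 7.29 in the adult libraries and 4.81 in neonatal replicate 2. With ranks of 9539, 7485 and 12024, the peaks of the strongest block were outside the 7353 strongest of their lists, and with only those peaks no base of Pecam1 was covered. The other 2 recurrent blocks had no neonatal peak. Promoter calls for Pecam1 came from 1 of these, 106660490 to 106661138, with folds of 3.98, 3.69 and 5.08. It was called promoter because a short transcript starts inside the gene at 106663326, whereas it lies 54.1 kb or more from the RefSeq start. No library had a peak within 3000 bp of the RefSeq start at 106715281, nor of 106750628, the most upstream Pecam1 start in the lists. The weak peak, 106742254 to 106742408 with a fold of 3.09, was in the first intron of that longer transcript in adult replicate 3 alone.

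Both Pecam1 sites of the authors' deposited table were higher in adult cells. The site at 106677777 to 106678176 in the authors' deposited table had a log2 fold change of 3.71 (adjusted p = 1.98e-07) and met no neonatal peak. The site at 106674872 to 106675271, in the strongest block, had 1.64 in the authors' deposited table (adjusted p = 0.00121), and it was the 1 site of the 5 that met a peak of a neonatal list. The latter was at the 22.1 percentile of all sites in the authors' deposited table.

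**Figure D2:**
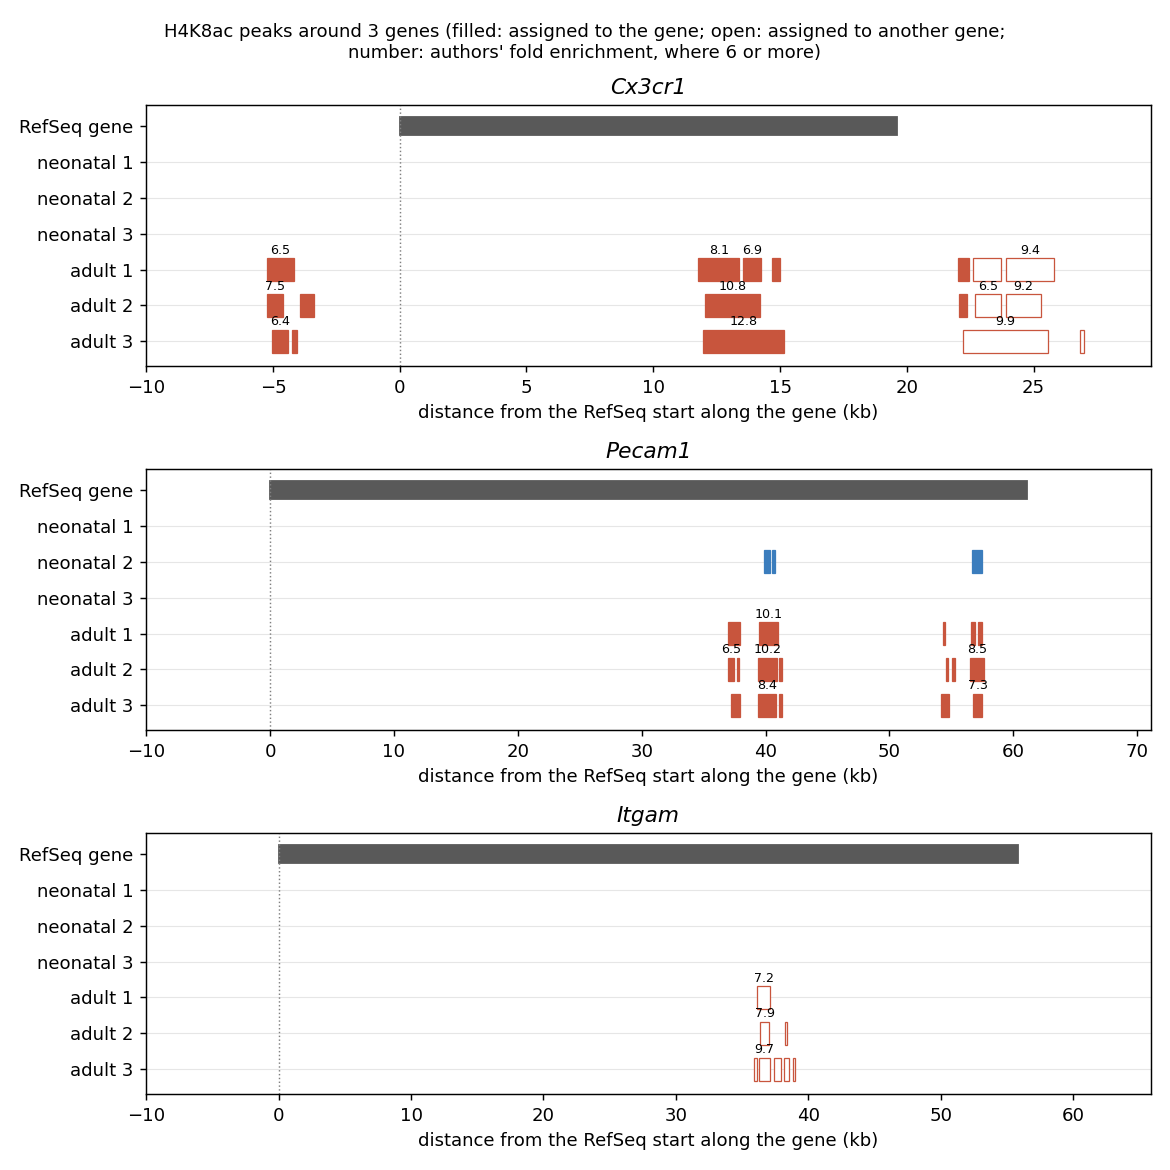
Peaks of each library (rows) around Cx3cr1, Pecam1 and Itgam, by distance from the RefSeq start along the gene in kb, drawn to scale; the grey bar is the RefSeq gene, filled boxes are peaks assigned to the gene, open boxes are peaks assigned to another gene, and numbers are the authors' fold enrichments of 6 or more. Peaks sit 11.8 kb or more inside the genes, past the 3′ end of Cx3cr1, or over 3 kb upstream, and none covers the RefSeq start.

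Itgam encodes the integrin alpha M chain (CD11b) of the complement receptor on microglia and other myeloid cells. It lies on chromosome 7, 128062640 to 128118491, on the plus strand. By assignment it had no peak. By position it did: a region at 128098785 to 128099776, 36.1 to 37.1 kb inside the gene and intronic in the authors' annotation, had peaks in all 3 adult libraries with folds of 7.23, 7.94 and 9.72 and in no neonatal library. The authors assigned these peaks to Gm49368, a gene model with a nearer start. Including smaller peaks around it, coverage over Itgam and 3000 bp on either side was 0.973, 0.909 and 2.19 kb in the adult libraries and 0 kb in each neonatal one. The adult mean was 1.36 ± 0.724 kb (SD, n = 3; exact two-sided permutation test, p = 0.1, adjusted p = 0.196 over all genes). Adult replicate 3 was the high one, and the difference without it was 0.941 kb. Ranks of 17656, 13323 and 9243 placed the main peaks within the length of the list of neonatal replicate 2 but outside the 7353 strongest.

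The Itgam gene also held 2 sites of the authors' deposited table, with log2 fold changes of 4.56 (128099292 to 128099691, adjusted p = 1.68e-11) and 4.53 (128100763 to 128101162, adjusted p = 0.000174). Within 3000 bp of the 10 genes these were the largest values in the authors' deposited table, reaching the 90.4 and 90.2 percentile of its sites. Peaks met the first in 3 and the second in 2 adult libraries. Cx3cr1, Itgam and Pecam1 were thus the 3 genes of 10 with a site higher in adult cells in the authors' deposited table, counted within the gene and 3000 bp on either side, against 54.1% of all genes. No site lower in adult cells lay at any of the 10 in the authors' deposited table. Such sites were rare, 254 of the 43888 in the authors' deposited table, and lay at 166 of all 21627 genes.

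Csf1r, P2ry12 and Tmem119 were bare in every library. Csf1r encodes the receptor for the survival factors Csf1 and Il34, on which microglia depend. Peaks nearest to Csf1r (chromosome 18, 61105572 to 61131139) were 45.5, 45.4 and 45.6 kb away in the neonatal and 41.8, 41.7 and 41.2 kb away in the adult libraries, all assigned to the neighbouring Hmgxb3. P2ry12, the purinergic receptor that steers microglial processes, lies on chromosome 3, 59216271 to 59262985. Its nearest peaks were at distances of 209.0, 81.2 and 209.6 kb in neonatal and 81.3, 48.9 and 49.3 kb in adult libraries. Tmem119, a membrane protein used to tell microglia from other macrophages, lies on chromosome 5, 113793729 to 113800396, and had its nearest peaks 20.3 to 21.9 kb away over the 6 libraries, assigned to Sart3 or Iscu. No peak lay within 10000 bp of any of these 3 genes.

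Aif1, which encodes the actin-binding protein Iba1, lies in the gene-dense major histocompatibility region on chromosome 17, 35170986 to 35176083. Its neighbours had peaks, and none was assigned to Aif1. The promoter peak of Prrc2a, a broadly expressed gene next to it, was present in all 6 libraries, with folds of 7.16, 11.1 and 6.06 in neonatal and 16.6, 13.1 and 13.8 in adult replicates 1, 2 and 3. Adult replicate 1 alone had a peak within 3000 bp of the Aif1 body, 2.71 kb upstream of the start, weak (fold 3.61) and assigned to Ncr3-ps. Farther upstream, all 3 adult libraries had a peak at 35185822 to 35186466 assigned to Lst1, a gene of leukocytes, with folds of 3.25, 5.39 and 4.86, and no neonatal library did.

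Cldn5, Cdh5 and Flt1 had few and weak peaks, none near their starts. Cldn5 encodes the main claudin of the blood-brain barrier tight junction and lies on chromosome 16, 18776847 to 18778262. A single distal peak about 43.1 to 43.3 kb upstream was assigned to it in neonatal replicate 2 (fold 3.91) and in adult replicates 1, 2 and 3 (folds 3.25, 4.25 and 2.43). Cdh5, VE-cadherin of endothelial adherens junctions, lies on chromosome 8, 104101613 to 104144504, and had 1 peak 10.1 kb upstream in adult replicates 1 and 3, with folds of 4.34 and 2.92. Flt1 encodes VEGF receptor 1 and lies on chromosome 5, 147561604 to 147726438. Its 1 peak, in an intron 27.7 kb from the RefSeq start, was found in neonatal replicate 2 only, with a fold of 3.55, at the 9.82 percentile of that list. The ages overlapped for all 3 genes, and no base of Cldn5 or Cdh5 within 3000 bp of the gene was covered in any library.

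**Figure D3:**
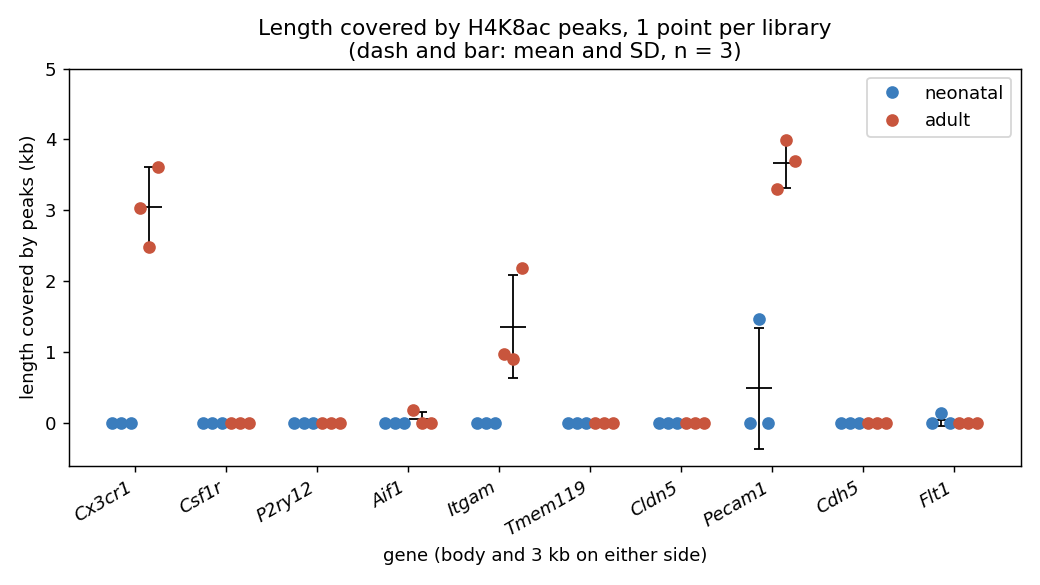
Length covered by peaks (kb) over each gene and 3 kb on either side, with 1 point per library (3 neonatal, 3 adult) and a dash and bar for the mean and SD of each age. The adult points of Cx3cr1, Pecam1 and Itgam lie above all neonatal points, while those of the other genes lie at or near 0.

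Across the 10 genes, coverage was higher in every adult than in every neonatal library for 3, against 50.9% of all genes, and no base was covered in any library for 5, against 31.2% of all genes. The median difference between adult and neonatal means was 0 kb over the 10 genes and 0.553 kb over all 21627. For the OPC genes the median difference was 6.89 kb, and 7 of 10 were higher in every adult library. With the 7353 strongest peaks of each library, no promoter peak remained on any of the 10 genes, whereas 4988 to 5875 of all genes kept one, depending on the library. A setting added after the data were seen kept the 31189 strongest peaks of each adult list. Of the 10 genes, 2 then had any peak in each adult library and 3 in neonatal replicate 2. In the latter, Flt1 and Cldn5 rested on peaks at the 9.82 and 21.6 percentile of its list. This setting holds 1 neonatal library, so it cannot order the ages, and its share over all genes is not given here.

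Wider marker lists were counted in the same way. Of 24 other microglial genes, promoter peaks were present on 2, 4 and 2 in the neonatal and 4, 3 and 4 in the adult libraries. No promoter peak was found in any library on 19 of the 24 (79.2%), against 37.8% of all genes. No peak of any class was found on 15 (62.5%), against 34.2% of all genes. Among these 15 were the complement genes C1qa and C1qc, the tetraspanin gene Cd53 and Cd68, a gene of phagocyte lysosomes. C1qb, the remaining C1q gene of the list, is named after its values were seen. It had no promoter peak but was assigned a peak of another class in neonatal replicates 2 and 3 and every adult library. Spi1, which encodes PU.1 and is named after its values were seen, had no promoter peak but was assigned peaks of other classes in all 6 libraries. None of the 24 had the adult-only promoter pattern of Cx3cr1, against 4.73% of all genes. Counting peaks of any class, 1 of the 24 (4.17%) had the adult-only pattern, against 5.53% of all genes. This was Laptm5, which encodes a lysosomal membrane protein of blood cells and is named after its values were seen.

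Of 24 other endothelial genes, promoter peaks were present on 3, 7 and 2 in the neonatal and 9, 8 and 8 in the adult libraries. A promoter peak in each adult but no neonatal list was found on 3 of 24 (12.5%), against 4.73% of all genes. These were Kdr (VEGF receptor 2), Cd34 (a sialomucin of vessels and blood progenitors) and Robo4 (an endothelial guidance receptor). Mfsd2a, a lipid transporter of the blood-brain barrier, had a promoter peak in all 6 libraries. Promoter peaks were absent from every list on 14 (58.3%), against 37.8% of all genes. Peaks of any class were absent from every list on 11 (45.8%), against 34.2% of all genes. These 11 included Abcb1a, the drug efflux pump of the barrier, Emcn, an endothelial sialomucin, and Ocln, which encodes the tight junction protein occludin. Of 10 pericyte and mural cell genes, which mark the cells that wrap vessels, promoter peaks were on 0, 5 and 0 in the neonatal and 1, 0 and 2 in the adult libraries. The 5 in neonatal replicate 2, named after the values were seen, were Abcc9, Anpep, Myh11, Notch3 and Pdgfrb. In that library 53.2% of all genes had a promoter peak.

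As a further comparison, 16 genes of other tissues, such as Alb of liver and Ins1 of pancreas, had promoter peaks on 0, 2 and 1 in the neonatal and 3, 3 and 3 in the adult libraries. Counted per adult library, promoter peaks were thus on 20% of the 10 microglial and endothelial genes and on 18.8% of the genes of other tissues. The 20% was Cx3cr1 and Pecam1 each time, whereas the 18.8% was not the same genes throughout. Sftpc and Tnnt2 were marked in each adult library, Ckm in adult replicate 1 and Apoa1 in adult replicates 2 and 3. Tnnt2, Ckm and Apoa1 are named after their values were seen. Sftpc, a surfactant gene of lung, was the 1 gene among the 16 with the adult-only promoter pattern. That is 6.25%, against 20% of the 10 genes and 4.73% of all genes. As these shares are 1 gene and 2 genes, they are given as a description. Whether the adult peaks at Cx3cr1, Itgam and Pecam1 came from other cells in the sort or from the progenitors was not tested.

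The partners of these receptors were counted as well. Of 10 ligands and co-receptors, 4, 9 and 4 had a promoter peak in the neonatal and 9, 8 and 9 in the adult libraries. The shares of all genes were 26.4%, 53.2% and 23.5% in the neonatal and 56.3%, 54.4% and 55.2% in the adult lists. Csf1, a ligand of Csf1r, and Vegfa and Vegfb, ligands of Flt1, had one in all 6 libraries, a pattern of 17.5% of all genes. Il34, the other Csf1r ligand, and Nrp1, a co-receptor for Vegfa, had one in neonatal replicate 2 and all 3 adult libraries. Cx3cl1, the ligand of Cx3cr1, was marked in neonatal replicates 1 and 2 and adult replicates 1 and 3. Only Itgb2, the integrin beta chain that pairs with Itgam, had no peak in any library, as did 34.2% of all genes.

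**Figure D4:**
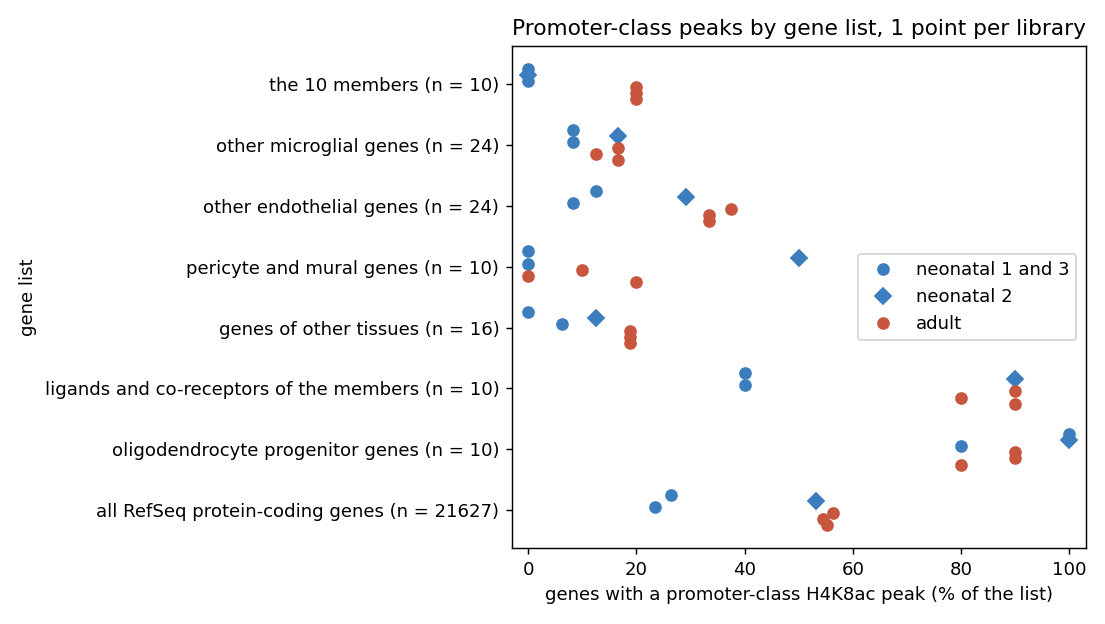
Percentage of the genes of each list with a promoter-class peak, 1 point per library, with neonatal replicate 2 as a diamond. The 10 microglial and endothelial genes lie at 0% in neonatal and 20% in adult libraries, below all protein-coding genes (23.5% to 56.3%) and below the OPC genes (80% to 100%).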

How the data were processed

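The authors deposited 1 peak list per H4K8ac library, so peaks were called per library, and a table of sites that differ between the ages. Per the submitters' processing notes, the tools were Trim Galore, Bowtie2 2.4.5, SAMtools, deepTools, MACS2, DiffBind and ChIPseeker with GRCm38; settings are not given in the sources used here. Per the file headers, the lists give a score (10 times −log10 q, as tested on the values), a fold enrichment (a ratio over background) and −log10 of the p-value and q-value, with the nearest gene. The largest q-value per list was 0.0427 to 0.0489. The deposited site table gives log2 fold changes, p-values and adjusted p-values, all under 0.05, and no values per library.

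List starts count from 0 (checked against the authors' distances) and were shifted to count from 1. Genes were matched by symbol to 21627 RefSeq protein-coding genes (GRCm38.p6), of which 14228 were assigned a peak; this set replaced the genes of the lists, which lack genes with no peak. Covered length was the union of peaks over the gene and 3000 bp on either side, compared by exact two-sided permutation over 20 arrangements, with Benjamini-Hochberg adjustment over all genes, in Python 3.11.15 with numpy 2.4.6 and pandas 2.3.3. The script was tested on simulated data. Counts over the chosen genes have no test. All 10 genes are named. Of the other lists, up to 6 genes per pattern were eligible. The genes and lists were chosen with earlier results of these data known. Alternatives were equal numbers of peaks, a q-value of at most 0.005, other windows and assignments, and leaving out each library.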

Additional observations from a re-analysis of the deposited data

How the results depend on the processing

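The difference between the ages in the mean number of the 10 genes with a promoter peak, 2, was 0 with the 7353 strongest peaks of each library and 0.333 when only the RefSeq start counted, chosen after seeing the data. The difference for peaks of any class, 2.67, was 0.667 with the 7353 strongest peaks and -1 with the 31189 strongest, without neonatal replicates 1 and 3, whose lists are shorter, chosen after seeing the data. The number of genes with more coverage in every adult library, 3, was 0 with the 7353 strongest peaks, and the number of sites of the authors' deposited table rose from 5 to 9 within 10000 bp. Shorter lists hold fewer peaks by construction. Leaving out each library gave differences of 2.17 to 3.67 for any class. For promoter peaks it gave 2 each time, which was fixed, since the count was 0 in each neonatal and 2 in each adult library. For Cx3cr1, Aif1, Itgam, Pecam1 and Flt1, 55 alternatives of covered length gave 0 reversals and 7 values of 0. No neonatal peak covered Cx3cr1, Aif1 or Itgam, and no adult peak covered Flt1. For these genes, leaving out libraries or peaks could not reverse the difference. The values of 0 included those of Itgam and Pecam1 with the 7353 strongest peaks.

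The correlations of same-numbered libraries' deviations, across genes, were 0.0208, -0.160 and -0.144. Those of differently numbered libraries ran from -0.118 to 0.183. With 3 libraries per age these values cannot decide whether the replicate numbers pair the libraries. With the replicate number as a block, the differences of 2 and 2.67 genes stay the same by construction, so they show nothing about pairing. The smallest possible p-value of the permutation test became 0.25, that of Cx3cr1, Itgam and Pecam1. Depth is unknown, so a missing peak shows only that none passed the authors' limit.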
